A study of Mus musculus with 8 samples.

Results

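The late effect of MPTP on the mouse retina was read from 4 of the 8 arrays of the series, 2 from retinas of mice given MPTP and 2 from retinas of mice given saline, all taken at 4 weeks (28 days). The arrays were chosen by their titles, and 19938 genes were compared. The mice were male, of the inbred strain C57BL/6, and 6 weeks old at the start. The labels name no transgene, deletion or further agent in either group. The other 4 arrays come from saline and MPTP groups taken at 1 week (7 days), again 2 per group, and are used here for the spread between arrays and for the comparison of the late with the early effect. Each group had 6 mice and each array carried RNA from a pool of 4 retinas. It is not stated whether both pools of a group hold retinas of different animals, so p-values measure only the spread between arrays, which may be partly technical.

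MPTP is converted by glia to the toxic cation MPP+. Dopamine neurons take up MPP+ by their dopamine transporter, and inside mitochondria it blocks complex I, where the respiratory chain begins. In the retina, dopamine is made by a sparse class of amacrine cells. It acts through receptors on photoreceptors and inner retinal neurons, where it takes part in light adaptation, in the coupling between cells and in the daily rhythm of the retina. Photoreceptors make up most retinal cells and hold most of the mitochondria, so their transcripts dominate RNA from whole retina. In such bulk samples, fewer cells of a type and less RNA per cell cannot be told apart.

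The arrays carried the signal of retina. The 20 measured genes of rod phototransduction had a median signal at percentile 99.7 of all genes, and the mean of the list was 11.08 and 11.13 (log2) in saline arrays 1 and 2 and 11.02 and 11.06 in MPTP arrays 1 and 2. Rhodopsin itself was not analysed here. The first principal component of these 4 arrays held 46.9% of the variance and set MPTP array 1 (score 15.2) apart from the other 3 (scores of -6.81 to -2.75). Across genes, the MPTP arrays correlated at r = 0.99357 with each other and the saline arrays at r = 0.99584, and pairs of arrays from different groups ranged from 0.99332 to 0.99604. Leading genes and groups that rest on MPTP array 1 are given below with and without it.

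At 4 weeks the differences in transcript levels between the retinas of MPTP and saline mice were small. By limma, 0 of 19938 genes (0%) passed at an adjusted p under 0.05, where the smallest adjusted p was 0.645, and 381 genes (1.91%) had an unadjusted p under 0.05, 219 of them higher (1.10%) and 162 lower (0.813%) with MPTP. With arrays shifted to a common median, the same threshold gave 173 higher and 197 lower genes. All differences are MPTP minus saline on the log2 scale, followed by the standard error of the fit, with n = 2 arrays per group. The median size of a difference was 0.0656 and 69.1% of genes lay under 0.1. For genes above the median signal, the unadjusted 95% interval reached a median of 0.222 to either side of the difference. Since no gene passed, the genes below are described by their values, and none of them is a call.

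The sign of the difference followed the brightness of the gene. Among the 9969 genes above the median signal, 42.4% were above 0, against 61.2% of the 9969 genes below it and 51.8% of all genes, and the medians were -0.02 and 0.03. Both MPTP arrays lay above both saline arrays for 12.4% of the bright and 22.3% of the dim genes, and below both for 25.0% of the bright and 10.8% of the dim genes. Over all genes these shares were 17.4% and 17.9%. After quantile normalization the share of bright genes above 0 was 48.6%, and after cyclic loess normalization it was 49.9%. The counts of gene groups below are therefore mostly set beside those of the bright or the dim genes. Each of these sets spans a wide range of signal. They are only a rough match for very bright lists, such as the rod genes at percentile 99.7.

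**Figure D1:**
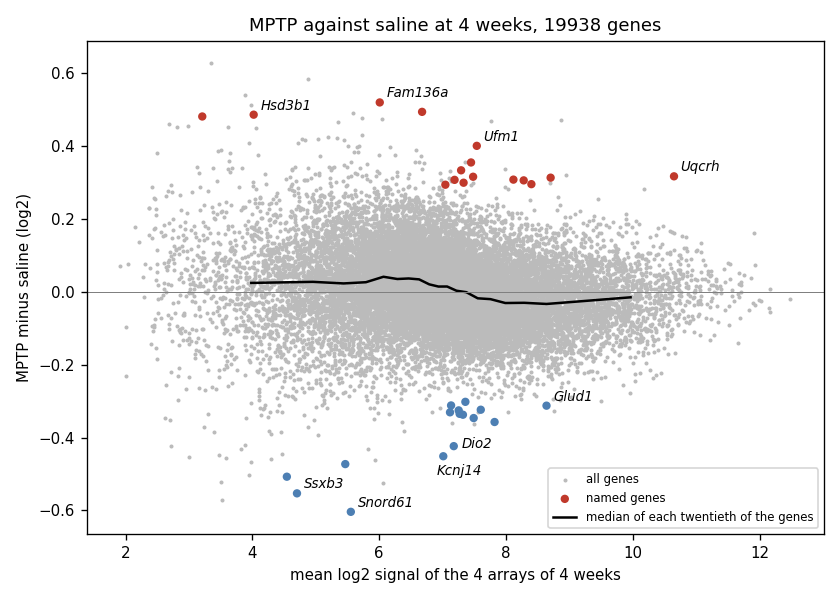
Difference between MPTP and saline at 4 weeks (log2, vertical axis) for each of 19938 genes against its mean log2 signal over the 4 arrays (horizontal axis). Coloured points are the 32 genes named by their difference, above (red) or below (blue) 0, and the black line joins the medians of 20 bins of equal size. The line lies slightly above 0 for dim genes and slightly below 0 for bright genes, and most differences lie within 0.3 of 0.

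Genes above the median signal were ranked by their difference where the groups did not overlap and the unadjusted p was under 0.05. Predicted or clone names, receptors of smell and of the vomeronasal organ, and microRNAs were passed over. The 12 highest differences in this ranking belonged to genes of varied function. Without the filter and exclusions, the highest difference of any gene above the median signal was 0.47. Ufm1, a ubiquitin-like protein that is attached to other proteins near the endoplasmic reticulum, read 7.52 and 7.15 in saline arrays 1 and 2 and 7.82 and 7.65 in MPTP arrays 1 and 2, in the order used throughout. Its difference was 0.40 ± 0.13. With the mean of its probe sets in place of the brightest it was 0.17, and with 1 array left out it lay between 0.22 and 0.58. Uqcrh, the hinge subunit of complex III, was the brightest of this set, at 10.57 and 10.41 with saline and 10.84 and 10.78 with MPTP, a difference of 0.32 ± 0.10. In Uqcrh the gap between the nearest values of the groups exceeded the gap within either group, and in Ufm1 it did not. Sf3b6, a component of the spliceosome, stood at 7.48, 7.16, 7.74 and 7.54 in the 4 arrays (0.32 ± 0.12). Cmpk1, a kinase that makes pyrimidine diphosphates, stood at 8.15, 8.10, 8.58 and 8.28 (0.31 ± 0.11). Nsmce1, a subunit of the SMC5/6 complex that maintains chromosomes, stood at 7.16, 7.09, 7.62 and 7.30 (0.33 ± 0.12). In Cmpk1, Nsmce1 and Klhl13, a substrate adaptor of a ubiquitin ligase (7.20, 7.16, 7.70 and 7.26; 0.30 ± 0.13), MPTP array 1 was far above the other 3 arrays. Without it their differences were 0.16, 0.17 and 0.08. Spry3, of the Sprouty family of inhibitors of growth factor signalling, was instead highest in MPTP array 2, at 8.64, against 8.46 in MPTP array 1 and 8.29 and 8.22 with saline (0.30 ± 0.10). The zinc finger genes Zfp763 (0.35 ± 0.12) and Zfp772 (0.29 ± 0.11), the neuronal membrane protein gene Lrrn1 (0.31 ± 0.11), the hair keratin-associated gene Krtap5-1 (0.31 ± 0.14) and the lens gene Lgsn (0.31 ± 0.12) completed the 12 highest.

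The 12 lowest differences in the same ranking were likewise of varied function. Kcnj14, an inwardly rectifying potassium channel, read 7.27 and 7.20 with saline and 6.57 and 7.00 with MPTP (-0.45 ± 0.17). Dio2, the deiodinase that converts thyroxine to the active hormone T3, read 7.36 and 7.41 against 6.72 and 7.21 (-0.42 ± 0.14). For both genes the saline arrays were close together and MPTP array 1 was the lowest. Without that array the difference was -0.24 for Kcnj14 and -0.18 for Dio2. Glud1, the glutamate dehydrogenase of mitochondria, was low in both MPTP arrays, at 8.74 and 8.85 with saline and 8.50 and 8.46 with MPTP (-0.31 ± 0.09). Jakmip1, which binds microtubules and GABA-B receptors, read 7.20 and 7.37 against 6.96 and 6.99 (-0.31 ± 0.10), and Mtmr10, of the myotubularin family, 7.55 and 7.43 against 7.14 and 7.16 (-0.34 ± 0.12). In these 3 genes the gap between the nearest values of the groups exceeded the gap within either group. Hey2, a transcriptional repressor downstream of Notch, was lowest in MPTP array 2, at 6.74, while MPTP array 1 (7.16) nearly met the lower saline array (7.18). Its difference was -0.33 ± 0.15, and -0.12 without MPTP array 2. Strn, a scaffold of the phosphatase PP2A, stood at -0.32 ± 0.13, Phactr4, a regulator of the phosphatase PP1 and of actin, at -0.33 ± 0.12, and the ubiquitin ligase Trim36 at -0.33 ± 0.14. Ptar1 (-0.36 ± 0.15), Lekr1 (-0.30 ± 0.13, and -0.09 with the mean of its probe sets) and Tmem189, which makes the vinyl ether bond of plasmalogens (-0.35 ± 0.15), completed the 12 lowest. Without MPTP array 1, Ptar1 stood at -0.19 and Tmem189 at -0.13.

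**Figure D2:**
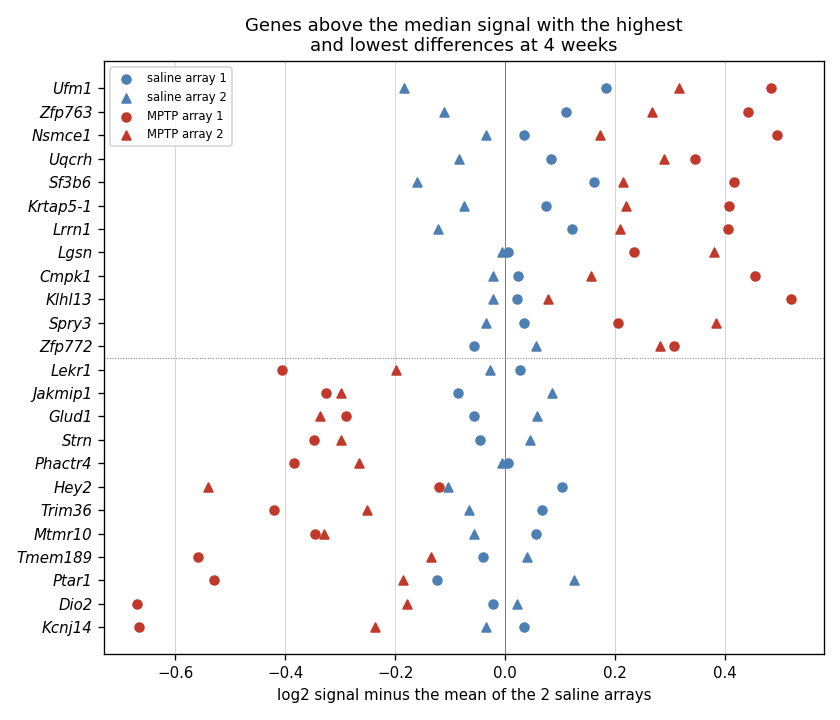
Log2 signal in each of the 4 arrays of 4 weeks, minus the mean of the 2 saline arrays (horizontal axis). Shown are the 12 highest and 12 lowest named genes above the median signal, all without overlap at an unadjusted p under 0.05. Blue points are saline and red points MPTP, circles are array 1 and triangles array 2. In Kcnj14, Dio2, Ptar1 and Tmem189 the circle of MPTP array 1 lies far from its partner, while in Glud1, Mtmr10, Strn and Zfp772 the 2 MPTP arrays lie together.

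The promoter of Dio2 is shown because Dio2 is 1 of the 3 bright genes that had a 1.3-fold difference, no overlap and an unadjusted p under 0.05, and because its start region holds a cAMP response element, the letters TGACGTCA, which read the same on both strands and are bound by CREB. cAMP is also the messenger of dopamine receptors. The sequence is from RefSeq (GRCm38.p6), the 250 bases before the start of the gene at chr12:90739039-90739288, minus strand, printed 5′ to 3′ with the element in capitals.
Dio2: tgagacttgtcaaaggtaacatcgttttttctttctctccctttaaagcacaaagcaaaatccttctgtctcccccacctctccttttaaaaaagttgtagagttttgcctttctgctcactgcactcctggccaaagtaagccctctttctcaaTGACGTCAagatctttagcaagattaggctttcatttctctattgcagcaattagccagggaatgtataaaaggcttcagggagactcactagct
The element lies 95 to 88 bases before the start. It was found in 1.55% of 32851 promoters of the same length, and in 1 of the 9 promoters at hand for genes of the thyroid hormone pathway, that of Dio2. The match describes the sequence and does not show that the element was in use. Of the 13 measured genes of this pathway, 5 were above 0 and 8 below, with a median of -0.03. Slco1c1, a transporter of thyroxine, read 7.69 and 7.59 against 7.52 and 7.43 (-0.17 ± 0.09), and the hormone receptor Thra 8.49 and 8.47 against 8.36 and 8.34 (-0.13 ± 0.09). In both genes the MPTP arrays lay below the saline arrays, as they did in 4 of the 13 genes (30.8%, against 25.0% of bright genes). Dio3, the deiodinase that inactivates the hormone, stood at 0.11 ± 0.13.

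Among dim genes the differences were larger and are less certain, because a probe set near the floor of the array measures its transcript poorly. In all, 53 genes (0.266%) had a difference of 1.3-fold or more without overlap at an unadjusted p under 0.05, 33 higher and 20 lower. Only 3 of them, Ufm1, Kcnj14 and Dio2, were above the median signal. Hsd3b1, a steroid dehydrogenase, stood at 3.76 and 3.79 with saline and 4.21 and 4.32 with MPTP (0.49 ± 0.10), the tightest of this set. Fam136a (0.52 ± 0.16), the retinol dehydrogenase Rdh7 (0.49 ± 0.19) and the sensory receptor Mrgpra6 (0.48 ± 0.15) were the other highest with the same filter and exclusions. The small nucleolar RNA Snord61 read 6.05 and 5.66 against 5.28 and 5.22 (-0.60 ± 0.19). Ssxb3 (-0.55 ± 0.14), the cytochrome P450 Cyp2a12 (-0.51 ± 0.19, and -0.17 without MPTP array 1) and the chitinase-like macrophage protein Chil3 (-0.47 ± 0.14) followed. Small nucleolar and spliceosomal RNAs were balanced, with 29 of 61 above 0 and a median of -0.0086. Within that list Snord49a stood at 0.34 ± 0.10 and Snord96a at -0.32 ± 0.11.

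The respiratory chain, whose first complex is the target of MPP+, had signal slightly above saline. The pattern was most even in complex III, which passes electrons from ubiquinol to cytochrome c. All 9 of its nuclear-encoded subunits were above 0, against 42.4% of bright genes, and in 7 of 9 both MPTP arrays lay above both saline arrays, against 12.4% of bright genes. The median was 0.14. Besides Uqcrh, these were Uqcrb, at 9.84 and 9.74 with saline and 10.07 and 9.89 with MPTP (0.19 ± 0.09), and Uqcrq, at 7.87 and 8.11 against 8.27 and 8.13 (0.21 ± 0.11). The small subunits Uqcr11 (0.14 ± 0.12) and Uqcr10 (0.10 ± 0.09) and the core subunits Uqcrc1 (0.06 ± 0.08) and Uqcrc2 (0.05 ± 0.09) also had no overlap, by small margins. The catalytic subunits overlapped: the Rieske protein Uqcrfs1 read 8.40 and 8.24 against 8.40 and 8.52 (0.14 ± 0.10), and cytochrome c1, Cyc1, 8.86 and 8.75 against 8.94 and 8.83 (0.08 ± 0.09). After quantile or cyclic loess normalization 9 of 9 subunits had no overlap, against 17.4% and 18.1% of bright genes, and the median was 0.15 under both. Without MPTP array 1, 9 of 9 remained above 0 with a median of 0.12, and without saline array 2 the median was 0.07.

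The other complexes were less even. In complex IV, cytochrome c oxidase, 8 of 10 subunits were above 0 and 3 were higher without overlap, against 12.4% of bright genes (median 0.08). Cox7b stood at 10.11 and 9.96 with saline and 10.47 and 10.16 with MPTP (0.28 ± 0.14, and 0.13 without MPTP array 1), Cox6c at 9.80 and 9.77 against 10.03 and 9.95 (0.20 ± 0.09), and Cox7a2l at 0.14 ± 0.09. For ATP synthase the counts were 13 of 15 above 0 and 2 higher without overlap, near the share of bright genes (median 0.06), with Atp5c1 at 0.16 ± 0.11 (0.03 without MPTP array 1) and Atp5h at 0.11 ± 0.09. Complex I itself had 23 of 35 subunits above 0, 8 higher and 3 lower without overlap (against 12.4% and 25.0% of bright genes), and a median of 0.04. Its member with the smallest p, Ndufs4, read 9.47 and 9.37 against 9.70 and 9.55 (0.20 ± 0.09), followed by Ndufa11 (0.17 ± 0.12) and Ndufb3 (0.16 ± 0.11). These lists leaned on MPTP array 1 more than complex III did, and they leaned on saline array 2 as well. Without MPTP array 1 the medians were 0.0019 for complex IV, 0.02 for ATP synthase and 0.0044 for complex I. Without saline array 2 they were 0.03, 0.02 and -0.0076 in the same order. In complex II, shared with the citric acid cycle, 2 of 4 subunits were above 0, and the flavoprotein Sdha read 10.21 and 10.24 against 10.15 and 10.10 (-0.10 ± 0.08). Cytochrome c itself, Cycs, the carrier between complexes III and IV, stood at 10.08 and 9.94 against 10.24 and 10.15 (0.19 ± 0.09).

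Other genes of energy supply and protein turnover differed little. Of 12 citric acid cycle enzymes 6 were above 0 (median 0.01). Of 15 glycolysis enzymes 4 were above 0 and 5 were lower without overlap, against 25.0% of bright genes (7 above 0 after quantile normalization), with a median of -0.04. Pkm, pyruvate kinase, read 10.39 and 10.34 against 10.23 and 10.26 (-0.12 ± 0.09), the neuronal enolase Eno2 8.63 and 8.67 against 8.45 and 8.51 (-0.17 ± 0.11), and lactate dehydrogenase Ldha 11.26 and 11.32 against 11.21 and 11.10 (-0.13 ± 0.09). In these 3 genes all MPTP values lay below all saline values, whereas hexokinase Hk1 stood at 0.16 ± 0.13, and at 0.01 without MPTP array 1. Of 33 proteasome subunits 25 were above 0 and 7 were higher without overlap, against 12.4% of bright genes (median 0.05), among them Psma4 at 9.93 and 9.86 against 10.09 and 10.06 (0.18 ± 0.10) and Psma2 at 0.16 ± 0.10. Without MPTP array 1 the count above 0 was 19 of 33 and the median 0.0088. Without saline array 2 the count was also 19 of 33, and the median was 0.01. Psmd5, an assembly chaperone of the proteasome, lay on the other side, at 7.83 and 7.78 against 7.58 and 7.49 (-0.28 ± 0.09), and was the only member with an unadjusted p under 0.05. Ribosomal proteins were balanced, with 31 of 59 cytoplasmic members above 0 (median 0.0028; Rps9 at 0.18 ± 0.09, Rpl41 at -0.22 ± 0.12) and 42 of 77 mitochondrial members (median 0.0048). The mitochondrial members with the smallest p pointed both ways, with Mrps18c at 0.34 ± 0.15 and Mrpl23 at 0.22 ± 0.09 against Mrps26 at -0.25 ± 0.10 and Mrpl49 at -0.21 ± 0.09.

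**Figure D3:**
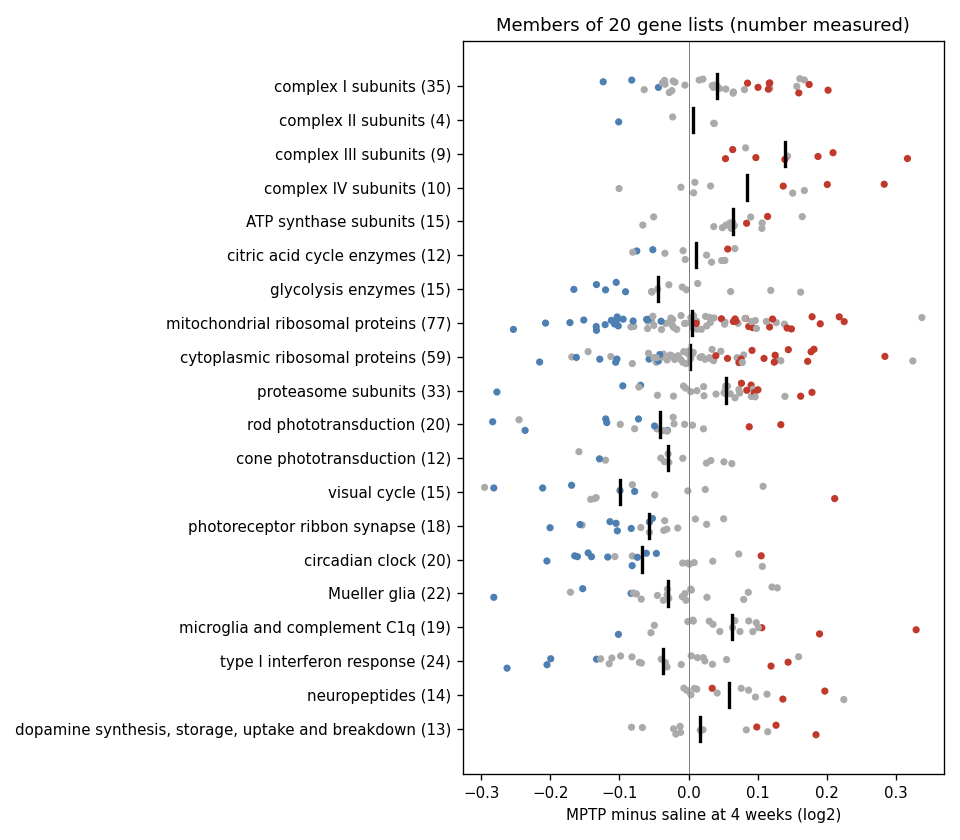
Difference between MPTP and saline at 4 weeks (log2, horizontal axis) for the measured members of 20 gene lists, 1 point per gene, with the number of members after each name. Red points are genes with both MPTP arrays above both saline arrays, blue points the reverse and grey points genes with overlap, and black bars are list medians. All points of complex III lie above 0, while the points of the visual cycle, the photoreceptor synapse and the circadian clock lie mostly below 0.

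Genes of the dopamine system stood close to saline. Th, which makes L-DOPA and limits the rate of dopamine synthesis, read 6.95 and 7.10 with saline and 6.98 and 7.04 with MPTP (-0.02 ± 0.09), so both MPTP values lay between the saline values. The dopamine transporter Slc6a3, the entry route of MPP+, read 6.56 and 6.65 against 6.67 and 6.79 (0.13 ± 0.14). The decarboxylase Ddc (5.79 and 6.00 against 6.02 and 5.75; -0.01 ± 0.11) and the vesicular transporter Slc18a2 (6.68 and 6.64 against 6.64 and 6.54; -0.07 ± 0.09) also overlapped between groups or nearly met. These 4 genes were below the median signal, which limits how small a difference these arrays can show. Over the 13 measured genes of dopamine synthesis, storage, uptake and breakdown, 7 were above 0 with a median of 0.02. The members with the smallest p were Aldh2, which oxidizes the aldehyde of dopamine (0.18 ± 0.10), and Pts (0.11 ± 0.10) and Spr (0.10 ± 0.11), which make the cofactor of Th. After quantile normalization the median was -0.0055 with 6 of 13 above 0.

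Dopamine receptors were bright and nearly level. Drd1 read 8.33 and 8.35 against 8.46 and 8.33 (0.05 ± 0.09) and Drd2 8.59 and 8.61 against 8.66 and 8.57 (0.02 ± 0.09). Drd4, the receptor of photoreceptors, read 8.76 and 8.85 with saline and 8.62 and 8.67 with MPTP, a difference of -0.16 ± 0.09 without overlap. Downstream of the receptors, the cAMP phosphodiesterase Pde4d read 8.28 and 8.30 against 7.95 and 8.11 (-0.26 ± 0.11, and -0.10 with the mean of its probe sets), the catalytic subunit of protein kinase A Prkacb 9.30 and 9.26 against 9.13 and 9.04 (-0.20 ± 0.11), and the cyclase Adcy1 8.61 and 8.79 against 8.53 and 8.58 (-0.15 ± 0.12). In all 3 genes both MPTP arrays lay below both saline arrays. Of the 17 genes of receptors and cAMP signalling, however, 9 were above 0, and 4 were lower without overlap, against 25.0% of bright genes. Genes of inherited Parkinson disease had 5 of 13 above 0 (median -0.01), with Pink1 at -0.10 ± 0.09, Park7 at 0.08 ± 0.10 and Gigyf2 at -0.11 ± 0.10. Genes of mitochondrial fusion, fission and mitophagy had 7 of 16 above 0, with the fusion protein Opa1 at 8.89 and 8.87 against 8.64 and 8.75 (-0.18 ± 0.11).

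Photoreceptor genes were lower in more members than higher, by small amounts. Of 20 rod phototransduction genes, 4 were above 0, 7 were lower and 2 higher without overlap (against 25.0% and 12.4% of bright genes), and the median was -0.04. The most abundant members stood level: the rod transducin subunit Gnat1 read 12.46 and 12.52 against 12.51 and 12.43 (-0.02 ± 0.09), and arrestin, Sag, stood at -0.04 ± 0.09. The members with the smallest p are given next. The rhodopsin kinase Grk1 read 10.35 and 10.52 against 10.14 and 10.26 (-0.24 ± 0.11), and the guanylate cyclase Gucy2e 8.27 and 8.45 against 7.98 and 8.17 (-0.28 ± 0.15). The channel subunit Cngb1 was low in 1 of the MPTP arrays, array 1, at 9.65, against 10.17 in MPTP array 2 and 10.13 and 10.19 with saline (-0.25 ± 0.15, and 0.01 without MPTP array 1). The disc protein Rom1 was on the other side, at 11.02 and 10.98 against 11.17 and 11.11 (0.13 ± 0.08). Of 12 cone genes 4 were above 0 (median -0.03; 5 above 0 after quantile normalization), with cone arrestin Arr3 at -0.12 ± 0.12 and the potassium channel subunit Kcnv2 at -0.13 ± 0.09. The short-wave opsin Opn1sw was level, at 10.69 and 10.76 against 10.69 and 10.75 (-0.0084 ± 0.09).

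The visual cycle, which restores the chromophore in pigment epithelium and Mueller glia, had the lowest median of the retinal lists, -0.10, with 3 of 15 genes above 0 and 5 lower without overlap (against 25.0% of bright genes). Rlbp1, the retinaldehyde-binding protein, read 8.59 and 8.58 against 8.44 and 8.16 (-0.28 ± 0.11). The photoreceptor retinol dehydrogenases Rdh12 (10.29 and 10.37 against 10.11 and 10.21; -0.17 ± 0.09) and Rdh11 (7.16 and 7.20 against 7.02 and 6.92; -0.21 ± 0.10) were lower in both MPTP arrays too, while the carrier of retinol Rbp4 was higher (0.21 ± 0.10). The genes of pigment epithelium in this list varied between arrays of a group as well as between groups. Rpe65, the isomerase, read 8.71 and 8.07 with saline and 8.34 and 7.85 with MPTP (-0.30 ± 0.40), and Lrat (-0.14 ± 0.23) and Rgr (-0.14 ± 0.31) had the same order of arrays. The mean of the 20 markers of pigment epithelium and melanocytes was 7.42 and 7.27 with saline and 7.39 and 7.20 with MPTP, and 7 of 20 were above 0. The part of this tissue in the visual cycle values was not tested.

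At the photoreceptor synapse, where ribbons feed glutamate to bipolar cells, 3 of 18 genes were above 0 and 8 were lower without overlap (44.4%, against 25.0% of bright genes), with a median of -0.06. Cabp4, a calcium sensor of the presynaptic channel, read 9.09 and 9.08 with saline and 8.78 and 8.99 with MPTP (-0.20 ± 0.13). Lrit1, a synaptic adhesion protein, read 8.85 and 8.92 against 8.73 and 8.72 (-0.16 ± 0.09), the dystroglycan gene Dag1 7.88 and 8.01 against 7.87 and 7.79 (-0.11 ± 0.10), and the active zone protein Rims2 10.63 and 10.68 against 10.48 and 10.62 (-0.10 ± 0.09). The groups lay apart in these genes by small margins, the smallest in Dag1. After quantile or cyclic loess normalization 4 of 18 were above 0 and 3 were lower without overlap, against 19.1% and 18.4% of bright genes. Retinal transcription factors had 7 of 20 above 0 (median -0.03), with Otx2, a regulator of photoreceptors and bipolar cells, at 10.35 and 10.48 against 10.30 and 10.26 (-0.13 ± 0.09) and Mef2d at -0.12 ± 0.11.

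Many clock genes lay slightly below saline in both MPTP arrays. Of the 20 measured genes of the circadian clock, 6 were above 0, and in 10 both MPTP arrays lay below both saline arrays (50%, against 25.0% of bright genes), with 1 the other way and a median of -0.07. Cry1, a repressor at the core of the clock, read 8.66 and 8.71 with saline and 8.41 and 8.55 with MPTP (-0.20 ± 0.10). The activators Clock (9.77 and 9.75 against 9.60 and 9.64; -0.15 ± 0.08) and Arntl (8.65 and 8.71 against 8.47 and 8.57; -0.16 ± 0.11), the repressor Nfil3 (7.99 and 8.09 against 7.81 and 7.95; -0.16 ± 0.11) and Per1 (8.07 and 8.20 against 7.96 and 8.03; -0.14 ± 0.10) stood likewise. Dbp, a direct output of Clock and Arntl, was the member on the other side, at 7.56 and 7.68 against 7.75 and 7.70 (0.11 ± 0.10). After quantile or cyclic loess normalization 8 of 20 were above 0 and 7 were lower without overlap, against 19.1% and 18.4% of bright genes, and the medians were -0.05. The sources used here do not give the time of day at which retinas were taken.

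The promoter of Cry1, the clock gene with the smallest p, is shown with its E-box, the letters CACGTG that Clock and Arntl bind and that read the same on both strands. It is the 250 bases before the start from RefSeq (GRCm38.p6), chr10:85185055-85185304, minus strand, 5′ to 3′, with the E-box in capitals.
Cry1: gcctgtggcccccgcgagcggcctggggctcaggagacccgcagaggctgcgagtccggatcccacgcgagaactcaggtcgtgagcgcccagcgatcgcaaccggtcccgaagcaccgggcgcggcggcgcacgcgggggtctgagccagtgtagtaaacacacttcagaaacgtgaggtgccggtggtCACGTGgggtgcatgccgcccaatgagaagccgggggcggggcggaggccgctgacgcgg
The E-box lies 60 to 55 bases before the start. It was found in 6.02% of the 32851 promoters and in 5 of the 17 promoters at hand for clock genes, those of Per1, Cry1, Tef, Bhlhe41 and Ciart. Of these 5 genes, Cry1 and Per1 were lower without overlap and the other 3 were not.

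Taken as a list, genes of gliosis and acute retinal stress differed between the arrays of a group far more than between MPTP and saline. The list holds genes that Mueller glia and other cells switch on after injury. Its mean was 7.33 and 6.99 in saline arrays 1 and 2 and 7.40 and 7.00 in MPTP arrays 1 and 2. Array 1 was above array 2 in both groups for 17 of the 21 members, and by at least 0.5 in both groups for 6 of them, which were named after their values were seen. The same counts over all genes are not given here. C1s1 and Lif, given below, differed more between groups than within either group. Serpina3n, a protease inhibitor of reactive glia, read 7.98 and 6.68 with saline and 8.23 and 7.02 with MPTP (0.30 ± 0.42). Fgf2, a growth factor that protects photoreceptors, read 8.33 and 7.36 against 8.32 and 7.35 (-0.0079 ± 0.33), and Edn2, an injury signal of photoreceptors, 7.60 and 6.96 against 7.81 and 6.85 (0.05 ± 0.29). A2m (0.11 ± 0.35), the cytokine receptor Osmr (-0.04 ± 0.33) and the transcription factor Cebpd (0.09 ± 0.20) had the same order. The list had 15 of 21 members above 0 and a median of 0.05, which was -0.11 without MPTP array 1 and 0.25 without MPTP array 2. The labels give no common factor for arrays of the same number, and the cause was not tested.

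**Figure D4:**
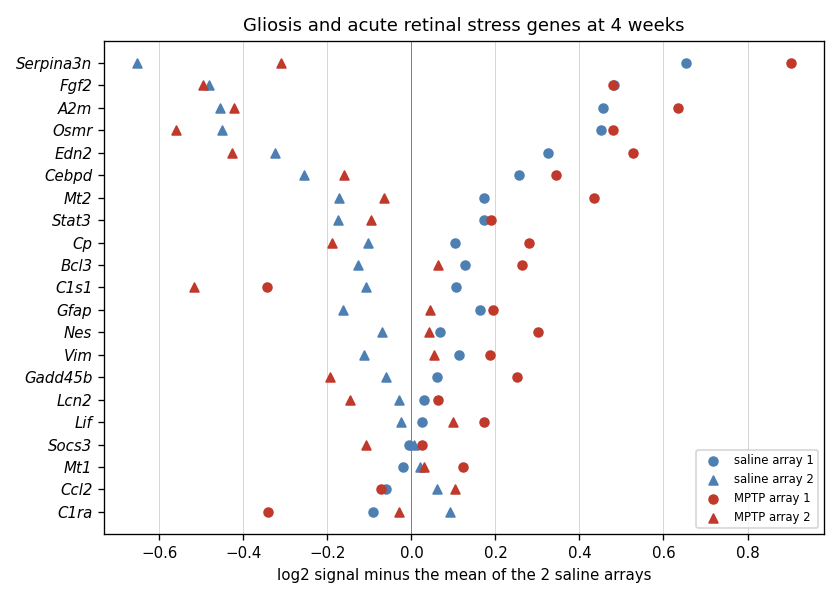
Log2 signal in each of the 4 arrays of 4 weeks, minus the mean of the 2 saline arrays (horizontal axis), for the 21 measured genes of gliosis and acute retinal stress. Blue points are saline and red points MPTP, circles are array 1 and triangles array 2. From Serpina3n to Cebpd the circles of both groups lie to the right and the triangles to the left, so the gap between arrays of a group exceeds the gap between groups.

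Within this list, 2 genes had both MPTP arrays above and 1 had both below the saline arrays. These shares were 9.5% and 4.8%, against 17.4% and 17.9% of all genes and 12.4% and 25.0% of bright genes. The complement protease C1s1, a very dim gene, read 4.14 and 3.93 against 3.69 and 3.52 (-0.43 ± 0.11), and the cytokine Lif 6.02 and 5.97 against 6.17 and 6.10 (0.14 ± 0.10). Gfap, the filament protein of reactive glia, read 6.78 and 6.45 against 6.81 and 6.66 (0.12 ± 0.12), and Vim 9.53 and 9.31 against 9.61 and 9.47 (0.12 ± 0.10). For both filaments the groups overlapped. Markers of resting Mueller glia had 7 of 22 above 0 (median -0.03), but 10 of 22 after quantile normalization (median -0.0040), 15 of 22 without MPTP array 2 and 13 of 22 without saline array 1. Among the Mueller markers with the smallest p, Spc25 stood at 9.28 and 9.42 against 9.17 and 9.21 (-0.15 ± 0.09) and Cd9 at -0.17 ± 0.13. Rlbp1 was also below 0, while Vim, given above, was above 0. The glutamate-handling genes, among which Glud1 had the smallest p, had 5 of 18 above 0 and 5 lower without overlap, near the 25.0% of bright genes, and 9 of 18 above 0 after quantile normalization. The glial glutamate transporter Slc1a2 read 9.58 and 9.61 against 9.47 and 9.53 (-0.10 ± 0.09).

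Immune genes lay in both directions. Of 19 genes of microglia and complement C1q, 15 were above 0, against 61.2% of dim genes (median 0.06). Only 3 of the 19 (15.8%) were higher without overlap, against 22.3% of dim genes. C1qa read 6.14 and 6.10 with saline and 6.48 and 6.41 with MPTP (0.33 ± 0.15), its partner C1qb 6.71 and 6.61 against 6.75 and 6.77 (0.11 ± 0.10), and the microglial adaptor Tyrobp 6.90 and 6.70 against 6.98 and 6.99 (0.19 ± 0.13). The complement receptor C3ar1 stood at -0.10 ± 0.11, and the microglial marker Aif1 was level, at 5.84 and 5.83 against 5.83 and 5.91 (0.04 ± 0.16). Without MPTP array 1 the count above 0 was 10 of 19 and the median 0.01. Interferon response genes had 9 of 24 above 0 (median -0.04), but 15 of 24 without saline array 1 (median 0.07) or without MPTP array 2 (median 0.02). Rtp4 read 6.63 and 6.48 against 6.44 and 6.27 (-0.20 ± 0.10), Xaf1 7.16 and 6.96 against 6.82 and 6.78 (-0.26 ± 0.15), and the transcription factor Irf7 6.23 and 6.42 against 6.23 and 6.02 (-0.20 ± 0.12), while Ifi35 stood at 0.14 ± 0.10. Antigen processing genes had 8 of 12 above 0, against 42.4% of bright and 61.2% of dim genes. Without overlap, 4 of the 12 were higher and 2 lower, against 17.4% and 17.9% of all genes. The immunoproteasome genes Psmb8 (0.18 ± 0.10) and Psme1 (0.18 ± 0.11) were among those higher in both MPTP arrays.

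Inner retinal neurons showed small differences without a common direction. Of 16 bipolar genes 5 were above 0 and 5 were lower without overlap (against 25.0% of bright genes; median -0.06), with 4 lower and 4 higher after quantile normalization. Members of both signs were Isl1 at 9.44 and 9.44 against 9.31 and 9.33 (-0.12 ± 0.09) and Vsx1, of cone bipolar cells, at 0.17 ± 0.10. Of 17 amacrine genes 8 were above 0 (median -0.0035), with the transcription factor Tfap2a at 7.77 and 7.78 against 7.66 and 7.67 (-0.11 ± 0.09). Neurod6, a very dim gene, was higher without overlap, at 4.07 and 4.14 against 4.25 and 4.21 (0.12 ± 0.09). Horizontal cell genes had 6 of 9 above 0, with the calcium buffer Calb1 at 9.09 and 8.86 against 9.29 and 9.09 (0.21 ± 0.12). Ganglion cell genes had 10 of 18 above 0, and 7 of 18 without MPTP array 1. Among these, the neuritin gene Nrn1 read 8.67 and 8.73 against 8.54 and 8.42 (-0.21 ± 0.11), the neurofilament Nefh stood at -0.12 ± 0.09 and the transcription factor Pou4f1 at 0.17 ± 0.11, while Thy1 was level, at 9.32 and 9.38 against 9.34 and 9.41 (0.02 ± 0.09).

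Neuropeptides, a list of medium brightness (median percentile 49.3 of signal), were above 0 in 12 of 14 members (8 of 14 without MPTP array 2). The median was 0.06. The 3 members higher without overlap (21.4%) were near the share of all genes (17.4%) and of dim genes (22.3%). Somatostatin, Sst, read 7.93 and 7.84 with saline and 8.09 and 8.07 with MPTP (0.20 ± 0.09). Crh stood at 0.14 ± 0.10 and Cck at 0.03 ± 0.09 without overlap, and the enkephalin gene Penk at 0.22 ± 0.31 with wide overlap. Immediate early genes, which report recent neuronal activity, had 9 of 22 above 0 and a median of -0.04. Nr4a3 read 5.97 and 5.86 against 5.66 and 5.65 (-0.26 ± 0.09), Fos 6.89 and 6.72 against 6.68 and 6.55 (-0.19 ± 0.13), and Egr1 7.86 and 7.49 against 7.61 and 7.02 (-0.36 ± 0.24), with overlap in Egr1. Fosb was higher, at 6.70 and 6.65 against 6.87 and 6.89 (0.20 ± 0.14).

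Stress and survival pathways that mitochondrial toxins are known to engage were balanced. Glutathione and NRF2 target genes had 10 of 19 above 0 (median 0.0044), with the glutathione transferase Gsta4 at 0.17 ± 0.10 and Gclc, which begins glutathione synthesis, at -0.17 ± 0.10. Scavengers of superoxide and peroxide had 10 of 16 above 0, with thioredoxin Txn1 at 10.81 and 10.77 against 10.90 and 10.91 (0.11 ± 0.08) and the mitochondrial glutaredoxin Glrx2 at 9.42 and 9.46 against 9.32 and 9.27 (-0.14 ± 0.09). The unfolded protein response had 11 of 22 above 0, with Pdia3 at 0.19 ± 0.10 and Herpud1 at -0.17 ± 0.10. Chaperones had 8 of 15 above 0, with the mitochondrial Hspa9 at -0.13 ± 0.10 and Hspe1, also mitochondrial, at 0.12 ± 0.10. Intrinsic apoptosis genes had 8 of 15 above 0, led by Cycs, and autophagy and lysosome genes 10 of 20, with Atg12 at 0.16 ± 0.09. Of the neurotrophic factors and receptors 7 of 18 were above 0, and Vegfa, a growth factor of vessels and neurons, read 8.76 and 8.78 against 8.43 and 8.69 (-0.21 ± 0.10, and -0.08 without MPTP array 1). Cholesterol synthesis had 15 of 18 above 0 with a median of 0.02, but 4 of 18 without MPTP array 1, and Nsdhl stood at 0.20 ± 0.10. Mitotic genes had 12 of 25 above 0, with the kinesin Kif4 at 6.17 and 6.14 against 5.50 and 5.90 (-0.46 ± 0.14, and -0.26 without MPTP array 1) and Aurkb at 6.67 and 6.73 against 7.03 and 6.93 (0.28 ± 0.12), while Bub1b stood at 0.21 ± 0.11.

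Markers of tissues next to the retina were mostly dim and often above 0 with MPTP. The mean of the 22 lens genes was 6.89 and 7.22 with saline and 7.09 and 7.17 with MPTP, 15 of 22 were above 0 and 8 were higher without overlap, against 22.3% of dim genes. The abundant crystallins varied most within saline: Cryba1 read 8.67 and 10.31 against 9.44 and 9.73 (0.09 ± 0.74), and Crygs 7.38 and 8.42 against 7.91 and 7.89 (-0.0018 ± 0.66), both named after their values were seen. The structural protein Bfsp2 stood at 0.16 ± 0.13. The mean of the 20 genes of cornea, conjunctiva and skin was 6.42 and 6.58 with saline and 6.57 and 6.58 with MPTP, 17 of 20 were above 0 and 7 were higher without overlap, with Sfn at 0.23 ± 0.10, Krt14 at 0.14 ± 0.09 and Krt15 at 0.26 ± 0.16. Muscle genes (15 of 19 above 0) had means of 6.50 and 6.54 against 6.61 and 6.56, with Des at 0.23 ± 0.11 and Acta1 at 0.13 ± 0.09. Vessel genes had 10 of 16 above 0 (Tie1 at 0.18 ± 0.13 but 0.01 without MPTP array 1, Pecam1 at 0.12 ± 0.10), myelin genes 8 of 13 (Mag at 0.19 ± 0.13, Mog at -0.16 ± 0.10), and red blood cell genes 2 of 3. The part of these tissues in the differences above was not tested. Saline array 1 had the lowest lens and epithelial means of the 4 arrays, and without it 12 of 22 lens and 10 of 20 epithelial genes were above 0.

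Some further values rested in part on MPTP array 1 or on the choice of probe set. Without that array, Mrps18c at 0.16, Rpl41 at -0.10, Uqcrb at 0.10, Ndufs4 at 0.13, Aldh2 at 0.08 and Cabp4 at -0.10 kept their sign with smaller values, and so did Cry1 at -0.14, Nfil3 at -0.09, Calb1 at 0.12, Vsx1 at 0.08, Psme1 at 0.10, Bub1b at 0.08, Chil3 at -0.28 and Haus6 at -0.11. When all probe sets of a gene were averaged in place of taking the brightest, Cycs stood at 0.12, Rps9 at 0.11, Uqcr11 at 0.09, Hk1 at 0.06 and Mrpl41 at -0.05. Other values rested in part on a different array. Without saline array 2, Pts stood at 0.0009, Vim at 0.0082, Ndufb3 at 0.03 and Sf3b6 at 0.15. Without MPTP array 2, Rlbp1 stood at -0.14. These genes kept their sign, and not all such cases are given.

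The difference between the MPTP effects at 4 weeks and at 1 week, which come from separate arrays, asks whether the late response departs from the early one. By limma, 0 of 19938 genes (0%) passed at an adjusted p under 0.05 (smallest adjusted p = 0.147), and 391 (1.96%) had an unadjusted p under 0.05. At 1 week, 0 genes passed, 842 (4.22%) had an unadjusted p under 0.05, and 26.3% of genes had no overlap between groups, against 35.3% at 4 weeks. Of the leading genes of 4 weeks, some had a like value at 1 week: Dio2 stood at -0.42 ± 0.14 late and -0.46 ± 0.14 early, Glud1 at -0.31 ± 0.09 and -0.35 ± 0.09, Uqcrh at 0.32 ± 0.10 and 0.36 ± 0.10, and Mtmr10 at -0.34 ± 0.12 and -0.29 ± 0.12. The late value of Dio2 was -0.18 without MPTP array 1. Ufm1 (0.40 ± 0.13 late, 0.60 ± 0.13 early), Zfp763 (0.35 ± 0.12 and 0.59 ± 0.12), Spry3 (0.30 ± 0.10 and 0.47 ± 0.10), Uqcrb (0.19 ± 0.09 and 0.35 ± 0.09) and Rlbp1 (-0.28 ± 0.11 and -0.52 ± 0.11) were smaller late than early. Kcnj14 (0.04 ± 0.17 early), Nsmce1 (0.07 ± 0.12) and Lgsn (0.01 ± 0.12) had values near 0 at 1 week. None of these differences between times passed the test.

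Other genes stood on opposite sides of 0 at the 2 times. Fdx1, the ferredoxin of mitochondrial iron-sulfur and steroid metabolism, read 7.48 and 7.62 with saline and 7.76 and 7.72 with MPTP at 4 weeks (0.19 ± 0.10), against -0.29 ± 0.10 at 1 week. The transcriptional cofactor Zfpm2 stood at 0.21 ± 0.09 late and -0.16 ± 0.09 early, followed by Dleu7 (0.17 ± 0.11 and -0.19 ± 0.11), Ubtd1 (0.18 ± 0.09 and -0.17 ± 0.09) and Tmem169 (0.12 ± 0.09 and -0.21 ± 0.09). On the other side were Hmgb1, a chromatin protein and danger signal (-0.26 ± 0.18 late, 0.34 ± 0.18 early), Haus6, of the mitotic spindle (-0.20 ± 0.12 and 0.30 ± 0.12), Phactr4 (-0.33 ± 0.12 and 0.16 ± 0.12), and Mrpl41, of the mitochondrial ribosome, at 9.69 and 9.68 against 9.55 and 9.57 (-0.12 ± 0.09 late, 0.36 ± 0.09 early). The interferon-induced gene Xaf1 stood at -0.26 ± 0.15 late and 0.38 ± 0.15 early. These genes were chosen for this difference, so their values describe it and do not test it. Among the lists, complex III had 9 of 9 above 0 late and 8 of 9 early, with medians of 0.14 and 0.10. The visual cycle had 3 of 15 above 0 late (median -0.10) and 10 of 15 early (median 0.07), the clock genes 6 and 10 of 20, and the rod genes 4 and 10 of 20. Bright genes as a whole moved the same way between the times. Of 9969 bright genes, 4225 were above 0 late and 5362 early. Rpe65 stood at -0.30 ± 0.40 late and 0.61 ± 0.40 early.

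**Figure D5:**
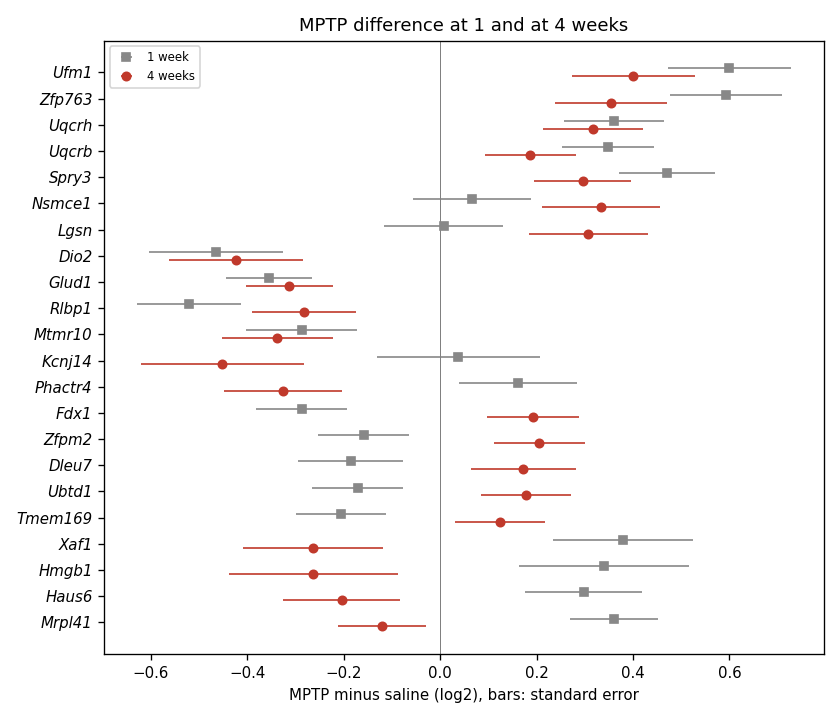
Difference between MPTP and saline (log2, horizontal axis) at 1 week (grey squares) and at 4 weeks (red circles) for 22 named genes, with bars of 1 standard error from limma. From Ufm1 to Mtmr10 both times lie on the same side of 0, for Nsmce1 and Lgsn near 0 at 1 week, and from Kcnj14 to Mrpl41 the times lie on opposite sides, for Kcnj14 near 0 at 1 week.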

How the data were processed

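RNA of whole retina was measured on 8 Affymetrix gene arrays, 2 per group, and 4 of these arrays are of 4 weeks. The deposited values are log2 signals that the authors made with RMA in Affymetrix Expression Console, per the submitters' processing notes, without a stated version. RMA had already normalized the arrays to each other, and no normalization was added in the values reported. No source used here gives hybridization or scan batches, and the precision is limited by the number of arrays.

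Of 28944 probe sets, 21789 named 1 gene. The 1621 naming several and the 5534 without an entry were left out, and for 999 genes with more than 1 probe set the brightest was kept, which gave 19938 genes. No dim gene was removed. A mean per group was fitted over all 8 arrays (4 residual degrees of freedom) with limma 3.58.1 in R 4.3.3, two-sided, and p-values of all genes were adjusted together (Benjamini-Hochberg). Bright means above percentile 50 of mean signal, and no overlap means that both MPTP arrays lay on 1 side of both saline arrays.

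The genes, the 51 gene lists and the tests were chosen with earlier results of these data known. Named genes are the 12 highest and 12 lowest bright genes and the 4 highest and 4 lowest dim genes without overlap at an unadjusted p under 0.05, the 5 highest and 5 lowest bright genes for the difference between times, up to 4 members of each list with the smallest p, and a set of dopamine and cell marker genes. Left out of this naming were microRNAs, receptors of smell and of the vomeronasal organ, and predicted or clone names. All 9 subunits of complex III are given, and Per1, Dbp, Gnat1, Sag, Rgr, Lrat and Rpe65 were added after their values were seen. Lists are described by counts and medians, with counts mostly set beside those of bright, dim or all genes. The alternatives were quantile, median-centred and cyclic loess scaling, a filter on dim genes, the mean of probe sets, trend and robust settings, array weights, only the 4 arrays of 4 weeks, the array number as a block, and each array left out. The code was tested on simulated data. Promoters were searched and figures drawn with Python 3.11.15 and matplotlib 3.10.9.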

Additional observations from a re-analysis of the deposited data

How the results depend on the processing

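The count of 0 genes at an adjusted p under 0.05 held in every setting run, for the effect at 4 weeks and for the difference between times. The 381 genes at an unadjusted p under 0.05 became 195 with bright genes only, 942 with only the 4 arrays of 4 weeks, 1006 with array weights, and 215 (without saline array 2) to 678 (without MPTP array 2) when 1 array was left out. The 53 genes with a 1.3-fold difference, no overlap and an unadjusted p under 0.05 became 3 with bright genes only and 95 (without MPTP array 1) to 297 (without MPTP array 2) when 1 array was left out, since a single array then stands for its group. Across all genes, the gaps between arrays 1 and 2 correlated at r = 0.12 between saline and MPTP of 4 weeks. In the other 5 pairs of groups r ranged from -0.38 to 0.21. A correlation over all genes cannot show whether arrays of the same number share a factor in some genes. In the stress list above, array 1 was above array 2 in both groups of 4 weeks for 17 of 21 members. With the number as a replicate block over the 8 arrays 304 genes had an unadjusted p under 0.05, and with a replicate block within each time, chosen after seeing the data, 229. Of the 187 genes recomputed, 163 kept their sign in every setting and 0 passed the adjusted threshold in any. After quantile and cyclic loess scaling Crygs turned to 0.011 and 0.026 and Fgf2 to 0.024 and 0.011, and Gnat1 was 0 after quantile scaling. The other turns of sign came from leaving out 1 array, with ranges of -0.42 to 0.63 for A2m, -0.0014 to 0.072 for Aif1, -0.38 to 0.042 for Cd9, -0.17 to 0.35 for Cebpd, -0.50 to 0.014 for Cngb1, -0.73 to 0.92 for Cryba1, -0.52 to 0.52 for Crygs, -0.15 to 0.12 for Ddc, -0.0075 to 0.12 for Drd1, -0.028 to 0.063 for Drd2, -0.43 to 0.53 for Edn2 and -0.50 to 0.48 for Fgf2. They were -0.044 to 0.28 for Gfap, -0.064 to 0.022 for Gnat1, -0.042 to 0.025 for Opn1sw, -0.56 to 0.48 for Osmr, -0.015 to 0.18 for Park7, -0.033 to 0.48 for Penk, -0.37 to 0.096 for Rgr, -0.62 to 0.025 for Rpe65, -0.083 to 0.0099 for Sag, -0.36 to 0.95 for Serpina3n, -0.094 to 0.057 for Th and -0.012 to 0.055 for Thy1. The median kept its sign in every setting for 21 of the 51 lists, complex III (0.07 to 0.15), clock (-0.08 to -0.04), visual cycle (-0.13 to -0.04), synapse (-0.09 to -0.03) and rod genes (-0.06 to -0.02) among them. The cause of these shifts was not tested.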
